A study of Mus musculus with 24 samples.

Results

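Expression was compared between the light phase and the dark phase of the day in the distal convoluted tubule and connecting tubule (DCT/CNT) of the mouse kidney. Of the 24 arrays in the series, 8 were chosen by segment and time, namely the 4 DCT/CNT arrays of zeitgeber times ZT4 and ZT8 (light) and the 4 DCT/CNT arrays of ZT16 and ZT20 (dark). Zeitgeber time counts hours from lights on, in a cycle of 12 h of light and 12 h of darkness. All mice were male C57BL/6J, untreated and of unmodified genotype as far as the labels say, and segments were dissected from collagenase-treated left kidneys. Each array carried 1 pool of RNA, with RNA of 5 animals at each time and 2 pools per segment and time. Whether both pools of 1 time drew on the same mice is not stated, so p-values measure the spread between pools, which may be technical. The other 16 arrays were the DCT/CNT pools of ZT0 and ZT12, at the turn of the phases, and the pools of the cortical collecting duct (CCD).

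The DCT reabsorbs sodium chloride through the cotransporter encoded by Slc12a3, and the CNT fine-tunes sodium, potassium, calcium and water transport under hormonal control. Its principal and intercalated cells handle salt and acid. The circadian clock is a loop in which ARNTL pairs with CLOCK or NPAS2 on E-box sequences to drive the Per, Cry and Nr1d genes. PER and CRY proteins then inhibit that pair, and the NR1D proteins repress Arntl and Npas2. Output factors such as DBP, TEF and HLF pass the rhythm on to other genes.

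Values are the deposited log2 signals, in which 1 unit is a doubling, and differences are light minus dark. Slc12a3 lay between 8.48 and 12.09 on the 8 arrays and between 4.48 and 6.01 on the CCD arrays of the same times, and Pvalb, a calcium-binding protein of the early DCT, lay between 6.17 and 10.09 against 4.57 to 5.57. These markers fit the dissected segment, and their wide range among DCT/CNT pools crossed both phases. Umod, a marker of the thick ascending limb, was also bright, between 10.6 and 12.1 on the 8 arrays and between 7.97 and 11.4 on those CCD arrays. For Slc12a3 the light pools spanned 9.44 to 11.54 and the dark pools 8.48 to 12.09. The mean of 23 measured DCT and CNT transport genes was lowest in the ZT8 pools and in ZT16 pool 1, at 10.23, 10.29 and 10.25, and at least 10.68 in the other 5 pools. Trpv5 was not among the measured genes.

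At an adjusted p under 0.05 (limma, Benjamini-Hochberg over 18194 genes), 104 genes, or 0.572% of those tested, differed between light and dark. Of these, 62 (0.341%) were higher in light and 42 (0.231%) higher in dark. At an unadjusted p under 0.05 there were 3355 genes (18.4%). The differences of the called genes ran from 0.48 to 2.38 in size on the light-higher side, with 14 genes beyond 2-fold, and from 0.51 to 2.07 on the dark-higher side, with 6 beyond 2-fold. The 4 light arrays all stood above the 4 dark arrays in 57 of the 62, and the 4 dark arrays all above the 4 light arrays in 39 of the 42. Among all genes such separation was found in 4.39% and 5.55%. The called genes were chosen on these same arrays, so their separation largely follows from the call. The number of calls depended strongly on single arrays: it was 4 without ZT4 pool 1, 19 without ZT4 pool 2, 63 without ZT8 pool 1 and 24 without ZT8 pool 2. Leaving out ZT16 pool 1, ZT16 pool 2, ZT20 pool 1 and ZT20 pool 2 gave 91, 16, 13 and 82 calls, and leaving out a ZT0 or a ZT12 pool gave 63 or 58. Only Nr1d1, Cry1 and Plppr1 were called in all 12 of these omissions, and 63 genes were called in fewer than 6 of them. Omitting either ZT0 pool gives the same fit, as does omitting either ZT12 pool, so the 12 omissions are not 12 separate checks. A fit over all 24 arrays called 773 genes, 483 higher in light (2.65%) and 290 higher in dark (1.59%), which included 98 of the 104.

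Markers of the proximal tubule, the segment that lies beside the DCT in the cortex, were lower in mean on every light array, with 1 of 20 called. The mean log2 value of 20 proximal tubule markers was 7.22 and 7.11 in the ZT4 pools and 7.14 and 7.11 in the ZT8 pools, against 7.49 and 8.07 in the ZT16 pools and 7.71 and 8.12 in the ZT20 pools. All 4 dark pools thus stood above all 4 light pools, and 19 of the 20 markers had a negative difference (median -0.75). Individually 11 of the 20 had all dark pools above all light pools, beside 5.55% of all genes, and 1, Pck1, was called as higher in dark, beside 0.231%. Slc34a1, the phosphate cotransporter that defines this segment, lay between 6.84 and 7.18 in light and between 7.40 and 8.57 in dark. In RNA of dissected tubules, fewer cells of a type and less RNA per cell cannot be told apart. Of 10 cell type lists 3 had all dark means above all light means. The others of these 3 were podocyte (6.09 to 6.15 in light against 6.18 to 6.48 in dark, 5 of 6 members negative) and erythrocyte (4.17 to 4.46 against 4.53 to 4.90, 3 of 3 negative), with 0 called in each, and their part in the results was not tested. The intercalated cell mean was the 1 with all light means above all dark means (10.61 to 10.72 against 10.43 to 10.55). Thick ascending limb markers overlapped between the phases, at 7.06 to 7.44 in light against 6.96 to 7.67 in dark. With the proximal tubule and thick ascending limb means as covariates only Nr1d1 was called, and the differences of all 104 genes kept their sign. Their size was then between 0.50 and 1.40 times that without covariates, with a median ratio of 1.02. As the proximal tubule mean itself separated the phases, this fit cannot tell its part from that of the phase.

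**Figure D1:**
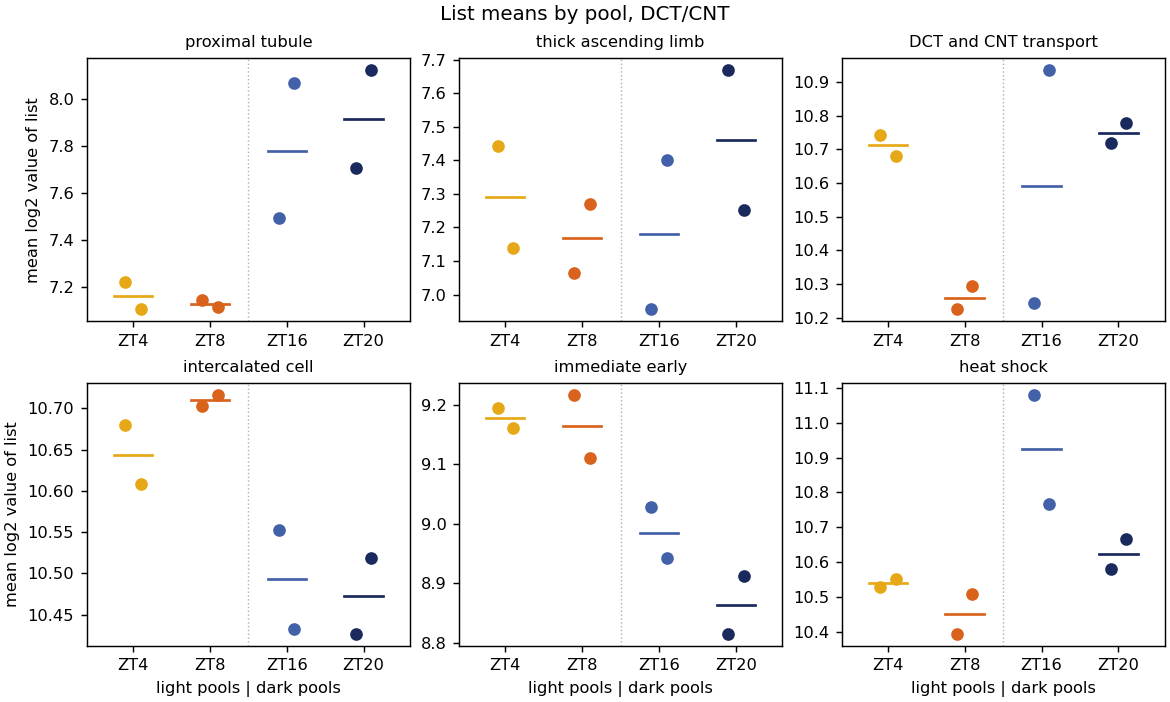
Mean log2 value of the measured members of 6 gene lists in each DCT/CNT pool, with 1 point per pool, a line at the mean of each time, light pools on the left and dark pools on the right of the dotted line. The proximal tubule means of the dark pools (7.49 to 8.12) all lie above those of the light pools (7.11 to 7.22), and the DCT and CNT transport means are low in the ZT8 pools and in ZT16 pool 1.

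Promoters are shown for 6 called genes that stand for the groups described next and whose window holds the letters of a known binding sequence of clock or stress factors. Windows run from 250 bases before to 50 bases after the gene start, 5′ to 3′ on the gene's strand, from RefSeq on GRCm38.p6. Capitals mark the E-box CACGTG, its variant CACGTT, the endoplasmic reticulum (ER) stress element (CCAAT, 9 free bases, CCACG), the heat shock element (GAA, TTC and GAA with 2 free bases between neighbours) or the ROR and REV-ERB element TAGGTCA on either strand. The Cry1 window (chr10:85185005-85185304, minus strand) has an E-box starting 60 bases and a variant starting 79 bases before the gene start. Nr1d1 (chr11:98775328-98775627, minus strand) has the variant 28 bases before its start, and Klf11 (chr12:24651121-24651420, plus strand) an E-box 214 bases before. Hspa5 (chr2:34771840-34772139, plus strand) has the ER stress element 65 bases before its start. Hsph1 (chr5:149636287-149636586, minus strand) has an E-box 2 bases and a heat shock element 36 bases after this start. Plin2 (chr4:86670010-86670309, minus strand) has an E-box 4 bases and a ROR and REV-ERB element 218 bases before its start.
Cry1: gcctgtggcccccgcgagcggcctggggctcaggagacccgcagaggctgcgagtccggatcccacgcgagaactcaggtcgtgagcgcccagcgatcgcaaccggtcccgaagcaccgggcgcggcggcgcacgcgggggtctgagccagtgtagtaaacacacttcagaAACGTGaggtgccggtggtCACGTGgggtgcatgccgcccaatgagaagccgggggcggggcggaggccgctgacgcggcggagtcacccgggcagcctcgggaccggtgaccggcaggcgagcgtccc
Nr1d1: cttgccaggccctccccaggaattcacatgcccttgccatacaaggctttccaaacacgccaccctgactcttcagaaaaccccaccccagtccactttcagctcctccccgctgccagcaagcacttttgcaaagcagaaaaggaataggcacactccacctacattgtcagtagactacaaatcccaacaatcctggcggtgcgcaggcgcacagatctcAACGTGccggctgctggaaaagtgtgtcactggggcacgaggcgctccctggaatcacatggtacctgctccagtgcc
Klf11: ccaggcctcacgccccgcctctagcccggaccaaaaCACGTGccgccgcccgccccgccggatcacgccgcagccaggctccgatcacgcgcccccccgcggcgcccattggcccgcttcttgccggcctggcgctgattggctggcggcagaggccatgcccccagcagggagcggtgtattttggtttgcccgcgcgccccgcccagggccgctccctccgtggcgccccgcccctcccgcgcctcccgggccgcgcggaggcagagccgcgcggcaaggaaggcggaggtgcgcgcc
Hspa5: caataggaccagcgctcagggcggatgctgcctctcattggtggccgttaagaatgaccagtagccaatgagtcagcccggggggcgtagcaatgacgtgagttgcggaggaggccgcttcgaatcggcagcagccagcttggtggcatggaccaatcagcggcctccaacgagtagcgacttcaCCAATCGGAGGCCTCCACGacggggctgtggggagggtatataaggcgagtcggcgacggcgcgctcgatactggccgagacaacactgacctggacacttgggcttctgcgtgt
Hsph1: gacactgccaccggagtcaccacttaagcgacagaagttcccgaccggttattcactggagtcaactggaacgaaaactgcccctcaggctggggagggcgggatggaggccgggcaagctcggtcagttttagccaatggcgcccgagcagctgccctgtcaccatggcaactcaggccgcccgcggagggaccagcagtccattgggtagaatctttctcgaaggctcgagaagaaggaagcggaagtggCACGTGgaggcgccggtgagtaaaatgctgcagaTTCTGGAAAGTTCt
Plin2: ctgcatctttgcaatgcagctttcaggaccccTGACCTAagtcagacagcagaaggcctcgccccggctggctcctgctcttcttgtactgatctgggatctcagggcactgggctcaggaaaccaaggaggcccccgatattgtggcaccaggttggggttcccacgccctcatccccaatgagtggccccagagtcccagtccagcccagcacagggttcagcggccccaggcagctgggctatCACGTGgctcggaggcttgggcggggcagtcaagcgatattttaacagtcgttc

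Promoter windows were available for 52 of the 62 light-higher genes, 36 of the 42 dark-higher genes and 14453 of the genes tested. The E-box was found in 7 of the light-higher windows (13.5%) and in 8 of the dark-higher windows (22.2%), against 10.2% of all tested genes. Its dark-higher holders were Ak4, Atp6v0d1, Cry1, Eif5a2, Hsph1, Ldhd, Nupr1 and Plin2. The variant was found in 2 light-higher (3.85%) and 3 dark-higher (8.33%) windows, against 6.01% of all. The ROR and REV-ERB element was found in 1 and 2 windows, against 2.57% of all, and the D-box TTATGTAA in 0 and 1, against 0.837%. The ER stress element stood in 0 light-higher windows and in Hspa5 alone among the dark-higher ones (2.78%), against 0.138% of all. The heat shock element stood in 0 light-higher windows and in Hsph1 alone among the dark-higher ones, against 0.609%. The cAMP response element TGACGTCA was found in 3 light-higher (5.77%) and 2 dark-higher (5.56%) windows, against 2.92%, and the glucocorticoid response element (ACA, 3 free bases, TGT, 1 free base, C) in 1 (1.92%) and 2 (5.56%), against 2.99%. These are counts of letters in 1 short window per start, and they were not tested.

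The core clock was split by phase. Of 16 measured members, 3 rose in light (Nr1d1, Npas2 and Nr1d2) and 2 fell (Cry1 and Per2), beside 0.341% and 0.231% of all genes, and the list's median difference was 0.03 beside -0.03 for all genes. Pool values are given with the ZT4 pair before the ZT8 pair and the ZT16 pair before the ZT20 pair. Nr1d1, which encodes the repressor REV-ERB alpha, stood at 8.42, 8.92, 9.14 and 9.31 in the light pools and at 7.01, 6.87, 6.00 and 6.38 in the dark pools. Every light pool was above every dark pool. The difference was 2.38 (SE 0.14, 5.22-fold, adjusted p = 0.000369), the largest among the called genes, and the adjusted p was at most 0.00578 over the 12 omissions.

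Cry1, a repressor of the ARNTL pair, read 7.39, 7.50, 6.20 and 6.76 in the light pools and 8.82, 8.85, 9.35 and 9.13 in the dark pools. The groups did not overlap, and the lowest values were those of ZT8. Cry1 fell by 2.07 in light (SE 0.14, 4.21-fold, adjusted p = 0.000707, at most 0.0103 over the omissions). Per2, its partner in repression, measured 6.29, 7.17, 7.48 and 7.99 in light and 9.60, 8.92, 8.82 and 8.67 in dark. It climbed through the light times and stayed high in dark, again with no overlap. The difference of -1.77 (SE 0.24) had an adjusted p of 0.0213, and the call was kept in 6 of 12 omissions, with an adjusted p of up to 0.0834.

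Other core members met the phase contrast in ways that the mean of a side hides. Npas2, the alternative partner of ARNTL, gave 8.40, 8.31, 7.31 and 6.67 in light and 5.16, 5.83, 7.32 and 6.58 in dark. Its ZT8 and ZT20 pools overlapped, and the ZT4 pools were highest. The difference was 1.45 (SE 0.24, adjusted p = 0.0396) and was called in 0 of the 12 omissions, with an adjusted p of up to 0.136. The other Npas2 probe set was dimmer (5.56 against 6.66 on average over the 24 arrays) and differed by 0.00075 (SE 0.09). Nr1d2, encoding REV-ERB beta, showed 9.24, 9.43, 10.38 and 10.58 in light and 10.52, 9.72, 7.52 and 7.86 in dark. The ZT16 pools lay within the range of the light pools, so the difference of 1.0 (SE 0.16, adjusted p = 0.0396, called in 1 of 12 omissions) came from ZT20. Against ZT16 alone it was -0.21.

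Of the core genes that did not pass the test, Arntl had 6.89, 7.32, 4.90 and 5.57 in light and 4.2, 4.80, 6.64 and 6.35 in dark. It was high at ZT4 and ZT20 and low at ZT8 and ZT16, and its difference was 0.67 (SE 0.20, adjusted p = 0.144). Clock was likewise high at ZT4 and ZT20, with a mean difference of 0.03 (SE 0.10, adjusted p = 0.896). Rora, which activates Arntl, had a difference of 0.52 (adjusted p = 0.0964). Cry2 had -0.49, Per3 -0.63 and Per1 0.30, with adjusted p of 0.128, 0.217 and 0.342.

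**Figure D2:**
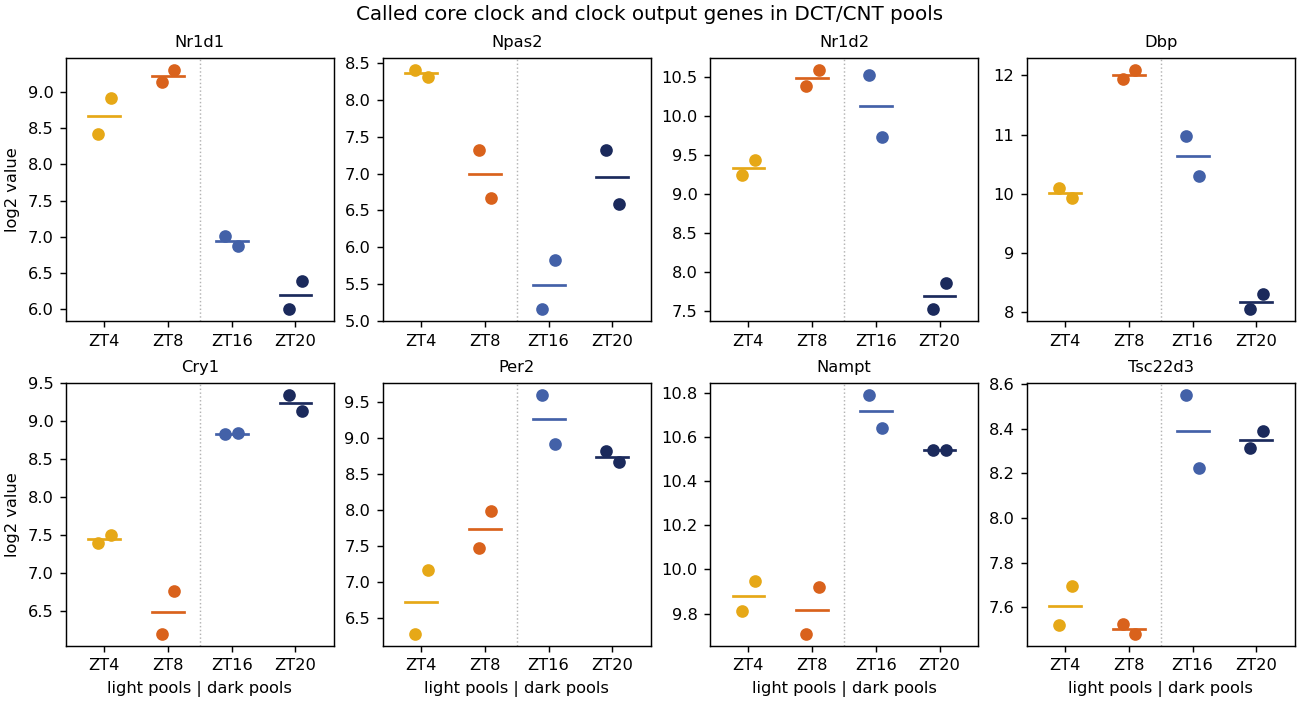
Log2 values of 8 called core clock and clock output genes in each light (ZT4, ZT8) and dark (ZT16, ZT20) DCT/CNT pool, with 1 point per pool and a line at the mean of each time. Nr1d1, Cry1, Per2, Nampt and Tsc22d3 separate the phases without overlap, while Npas2, Nr1d2 and Dbp differ within a phase by about as much as between phases, or more.

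Among 15 measured clock output genes, 1 was higher in light and 3 were higher in dark (beside 0.341% and 0.231% of all genes), with 14 of 15 differences negative and a median difference of -0.46. Dbp, the PAR bZIP factor that binds D-boxes, was the light-higher one. Its light pools read 10.09, 9.93, 11.94 and 12.09 and its dark pools 10.98, 10.31, 8.05 and 8.30. The ZT16 pools exceeded the ZT4 pools, so the phases overlapped, and the peak was at ZT8. The difference was 1.60 (SE 0.17, adjusted p = 0.00867, called in 10 of 12 omissions). Its relatives had the opposite sign and did not pass, with -0.47 for Tef (adjusted p = 0.0973) and -0.81 for Hlf (adjusted p = 0.0551).

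Nampt, the rate-limiting enzyme of NAD salvage, stood at 9.81, 9.95, 9.71 and 9.92 in light and at 10.79, 10.64, 10.54 and 10.54 in dark. The spread within a phase was small and there was no overlap. Nampt fell by 0.78 in light (SE 0.09, 1.72-fold, adjusted p = 0.00951, called in 10 of 12 omissions). Tsc22d3, the glucocorticoid-induced leucine zipper protein that is also an aldosterone target in this segment, gave 7.52, 7.69, 7.53 and 7.48 in light and 8.55, 8.22, 8.31 and 8.39 in dark. It too was lower on every light array (-0.81, SE 0.11, adjusted p = 0.0213, called in 5 of 12 omissions). Usp2, a deubiquitinase, differed by -0.58 (adjusted p = 0.0454), and no omission kept that call (adjusted p up to 0.15). The other Usp2 probe set fell by 0.78 in light (SE 0.10) and was called over all probe sets (limma adjusted p = 0.0251). Wee1 and Nfil3, a mitotic kinase and a D-box repressor, had -0.46 and -0.87 without passing.

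Sphk2, a sphingosine kinase, followed the course of Dbp, with light pools averaging 10.13 ± 1.14 and dark pools 8.74 ± 1.28 (SD, n = 4 each). The difference was 1.40 (SE 0.14, adjusted p = 0.00745, called in 11 of 12 omissions). In the reference gene table Dbp and Sphk2 overlap, and the other Sphk2 probe set differed by only 0.04 (SE 0.11). Whether the called Sphk2 probe set reads Dbp transcripts was not tested. Pspc1 and Zmym5 were the only other called pair that were next to each other among measured genes.

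Outside the clock lists the largest light-higher differences were those of Tspyl3 and Ranbp3l, which are described further on, Sphk2 and Antxr1. Klf11, a Krüppel-like factor that came next, stood at 7.46, 7.73, 7.48 and 7.56 in light and at 6.50, 6.30, 6.21 and 6.70 in dark. All light pools were higher by 1.13 on average (SE 0.14, adjusted p = 0.0177, called in 7 of 12 omissions). Its relative Klf10 differed by 0.96 (SE 0.16, adjusted p = 0.0396, called in 3 of 12), with light pools at 9.29 ± 0.105 and dark pools at 8.33 ± 0.258 (SD, n = 4 each). Plppr1, a phospholipid phosphatase-related membrane protein, measured 7.05, 6.99, 6.57 and 6.43 in light and 5.49, 5.22, 6.09 and 6.18 in dark. ZT4 was highest and ZT16 lowest, and the difference of 1.02 (SE 0.09, adjusted p = 0.00548) kept its call in every omission, with an adjusted p of up to 0.0449.

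Herc3, a ubiquitin ligase, and Scube3, a secreted signalling protein, rose by 0.90 and 0.86 in light (both adjusted p = 0.00745, both called in 11 of 12 omissions). Satb1, a chromatin organiser, rose by 0.76 and kept its call in 11 of 12. Antxr1, a collagen-binding receptor, had light pools between 7.39 and 7.55 and dark pools between 5.61 and 6.81. The lowest dark value was ZT16 pool 2, and the difference was 1.20 (SE 0.21, adjusted p = 0.0496, called in 2 of 12). Rab40b, Tnk2, Mbtd1 and Nfkbiz, among them a small GTPase, a tyrosine kinase and a nuclear regulator of NF-kappaB, differed by 1.04, 1.03, 0.89 and 0.85. Their limma adjusted p-values were 0.0215, 0.0442, 0.0177 and 0.0396, and Nfkbiz was not called by the 24-array fit (adjusted p = 0.0906). The next brightest probe sets of Rab40b, Tnk2, Mbtd1 and Nfkbiz differed by -0.22, 0.14, 0.80 and 0.64, without a call over all probe sets. Slc38a2, a sodium-coupled neutral amino acid transporter, rose by 0.77 with no overlap.

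Tspyl3 had the second largest light-higher difference, 2.25 (SE 0.39, adjusted p = 0.0442, called in 2 of 12 omissions). Its dark pools read 2.97 to 3.67, near the bottom of the signal range, against 4.65 to 6.13 in light. The other Tspyl3 probe set differed by 0.05 (SE 0.23). The dimmer phase of only 3 called genes averaged under 4.

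**Figure D3:**
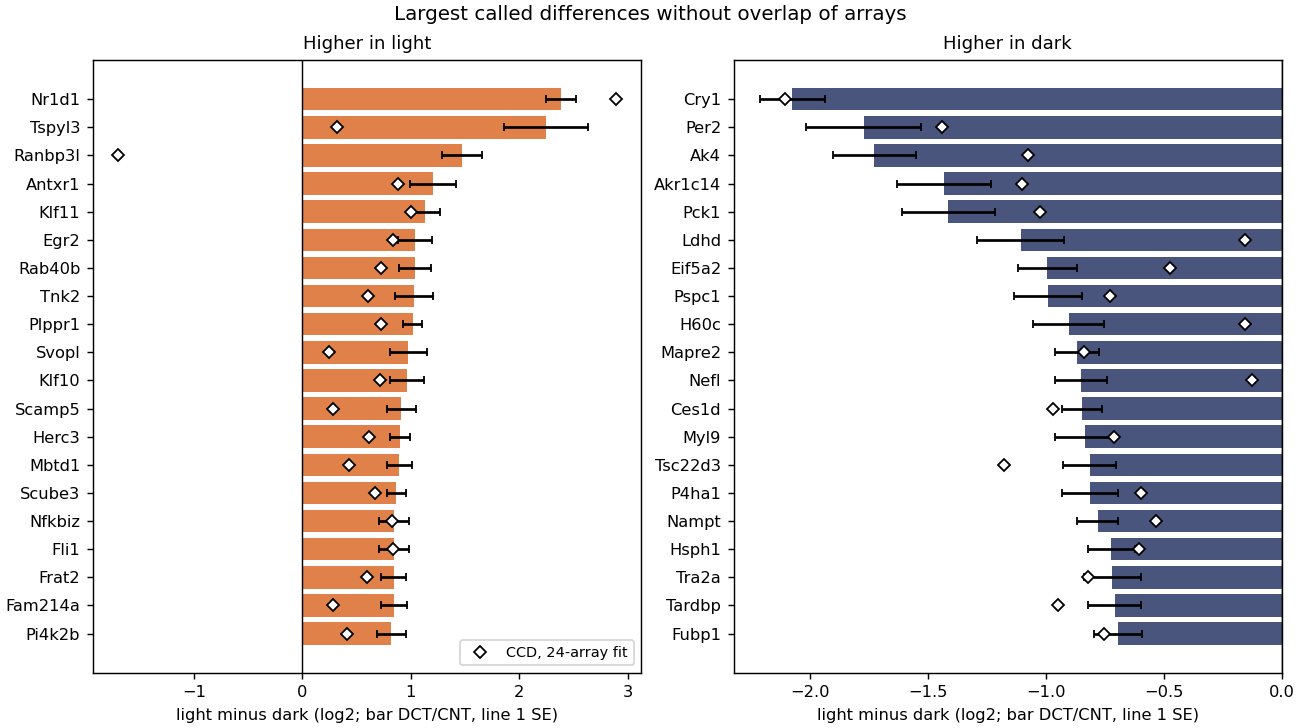
Light minus dark in DCT/CNT (bars, log2, with a line of 1 SE) for the 20 largest called differences each way whose arrays did not overlap, with the CCD difference from the 24-array fit as diamonds. Ranbp3l is the light-higher gene whose diamond lies on the other side of 0, at -1.70.

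On the dark-higher side Ak4, a mitochondrial adenylate kinase, stood at 7.58, 7.65, 7.50 and 7.30 in light and at 9.03, 9.56, 8.97 and 9.37 in dark. The phases were far apart, at -1.73 (SE 0.17, 3.31-fold, adjusted p = 0.00745, called in 11 of 12 omissions). With the tubule covariates the difference was -1.24 and not called (adjusted p = 0.232). A further Ak4 probe set fell by 1.45 in light and was called over all probe sets (adjusted p = 0.00257).

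Pck1, which makes phosphoenolpyruvate for gluconeogenesis and is itself one of the proximal tubule markers, gave 7.84, 7.79, 7.32 and 7.54 in light and 8.85, 9.47, 8.61 and 9.20 in dark. The difference of -1.41 (SE 0.20, adjusted p = 0.0213, called in 5 of 12 omissions) was -0.81 with the covariates and was not called by the 24-array fit (adjusted p = 0.061). Akr1c14, a hydroxysteroid dehydrogenase, and Ldhd, the D-lactate dehydrogenase, fell by 1.43 and 1.11 in light (adjusted p = 0.0213 and 0.0396). With the covariates they stood at -0.95 and -0.55, and neither was called. The proximal tubule mean, of which Pck1 is a member, was higher in all 4 dark pools, as given above. The covariate fit therefore cannot tell it apart from the phase. Its part in Ak4, Pck1, Akr1c14 and Ldhd was not tested.

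Several other dark-higher genes had similar or larger differences in the covariate fit, though none of them was called there. The limma adjusted p of Ces1d, Nefl and Mapre2 in that fit was 0.177, 0.276 and 0.308. Ces1d, a carboxylesterase, read 11.01, 10.94, 10.52 and 10.50 in light and 11.54, 11.42, 11.78 and 11.62 in dark. It fell by 0.85 in light without overlap (SE 0.09, adjusted p = 0.00745, called in 11 of 12 omissions), and by 0.99 with the covariates. Nefl, the neurofilament light chain, differed by -0.85 (limma adjusted p = 0.0177, but 0.0552 and not called in the 24-array fit) and by -1.01 with them. Mapre2, a microtubule plus-end protein, differed by -0.87 (adjusted p = 0.00867, called in 11 of 12), and by -0.82 with them. Eif5a2 and P4ha1, a translation factor and a collagen prolyl hydroxylase, differed by -0.99 and -0.81. Myl9, a smooth muscle myosin light chain, differed by -0.83 and was not called by the 24-array fit (adjusted p = 0.0775). The light times differed from ZT20 by -1.32 and from ZT16 by -0.35 for this gene. The mean of the smooth muscle, mesangium and fibroblast list overlapped between the phases, at 6.32 to 6.70 in light against 6.57 to 7.0 in dark, with 9 of 11 members negative and 0 called. Its part in the Myl9 value was not tested.

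Of 24 measured splicing factors, 1 was higher in light (Hnrnpdl, 0.60, adjusted p = 0.0408) and 1 higher in dark (Tra2a, -0.72, adjusted p = 0.0413), beside 0.341% and 0.231% of all genes, with a list median of 0.10. Among named genes outside that list, Pspc1, a paraspeckle protein, Tardbp, the TDP-43 RNA-binding protein, and Fubp1 fell by 0.99, 0.71 and 0.69 in light. Cirbp, the cold-inducible RNA-binding protein, stood at 9.58, 9.40, 9.60 and 9.84 in light against 8.13, 8.34, 8.27 and 8.81 in dark. It did not overlap, but at 1.21 (SE 0.24) its adjusted p was 0.0666.

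Heat shock and ER chaperone genes had mostly negative differences, of which 1 in each list passed the test, beside 0.231% of all genes higher in dark. Among all genes 10257 of 18194 differences were negative. Of 20 heat shock genes, 1 was called, Hsph1, a co-chaperone of HSP70, with 11.04, 11.10, 11.08 and 11.01 in light and 12.20, 11.81, 11.59 and 11.51 in dark. The light pools were nearly alike, and the dark pools spread above them by 0.72 on average (SE 0.10, adjusted p = 0.0213, called in 7 of 12 omissions). The list's median was -0.23, 19 of 20 differences were negative and 8 of 20 genes had all dark pools above all light pools, beside 5.55% of all genes. Hspe1 and Chordc1 had -0.38 and -0.48 without passing (adjusted p = 0.0787 and 0.0853). ZT16 pool 1 had the highest heat shock mean, 11.08, against 10.77 in the other ZT16 pool.

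Hspa5, the main ER chaperone BiP, was the 1 called gene of 27 in the ER chaperone and unfolded protein list, beside 0.231% of all genes. It had 12.23, 12.27, 11.85 and 11.78 in light and 12.78, 12.57, 12.61 and 12.54 in dark. There was no overlap, and the difference was -0.59 (SE 0.08, adjusted p = 0.0213, called in 7 of 12 omissions). Manf and Sdf2l1, a secreted ER stress factor and an ER co-chaperone, had -0.94 and -0.84 with adjusted p of 0.0531 and 0.0544. The list median was -0.22, with 25 of 27 differences negative, beside 10257 of 18194 for all genes. Genes of ER translocation and N-glycosylation did not follow, with 0 of 24 called and a median of 0.02.

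Immediate early genes are induced rapidly by hormones and by handling of tissue. Of 25 measured, 1 was called as higher in light, beside 0.341% of all genes. All light pools stood above all dark pools in 12, beside 4.39% of all genes. The called one was Egr2, at 8.0, 8.08, 7.89 and 7.88 in light and 6.89, 6.93, 6.88 and 6.99 in dark. Its pools were tight within each phase, and it rose by 1.04 (SE 0.16, adjusted p = 0.0333, called in 4 of 12 omissions). Nr4a1, an orphan nuclear receptor, had 1.06 with an adjusted p of 0.0507 and Jun 0.46 with 0.0761. The list's median was 0.34.

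No transport gene listed for the segment passed the test. Of 23 DCT and CNT transport genes 0 were called by limma, with 4 at an unadjusted p under 0.05, near the 18.4% of all genes, and a median of -0.11. Wnk1, a kinase that regulates the Slc12a3 cotransporter, had 12.39, 12.47, 12.17 and 12.21 in light against 12.54, 12.73, 12.66 and 12.60 in dark. The dark pools were all higher, by 0.32 (SE 0.09, adjusted p = 0.118). The calcium-binding protein gene Calb1 had -0.26 (adjusted p = 0.154), the magnesium channel gene Trpm6 -0.83 (adjusted p = 0.216) and the kinase gene Stk39 0.24 (adjusted p = 0.22). Trpm6 was lowest in the ZT8 pools and in ZT16 pool 1, the pools with the lowest transport list mean.

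Of 19 principal cell sodium and potassium genes 0 were called, and the 3 at an unadjusted p under 0.05 were also near that share. The sodium channel gene Scnn1a and the potassium channel gene Kcnj1 both had -0.26 (adjusted p = 0.17 and 0.146), with every dark pool above every light pool. Among 23 vasopressin and water genes 0 were called and 12 had an unadjusted p under 0.05, beside 18.4% of all genes. In that list 15 differences were positive and 8 negative, with a median of 0.04. The list mean was higher in every light pool, at 8.10 to 8.21 against 7.99 to 8.09 in dark. The following gene was among the 8 negative ones. Avpr2, the vasopressin V2 receptor gene, stood at 9.89, 9.86, 9.36 and 9.56 in light against 9.97, 10.05, 10.11 and 10.23 in dark. Its phases did not overlap, and the difference was -0.42 (SE 0.09, adjusted p = 0.0738). In the intercalated cell list 17 of 20 differences were positive, with 7 genes above in all light pools, beside 4.39% of all genes, and 0 called (6 at an unadjusted p under 0.05, beside 18.4%). Kit led it at 0.58 (adjusted p = 0.05, not under the threshold). Leukocyte markers overlapped between phases (mean 7.04 to 7.38 in light against 6.91 to 7.16 in dark), and Ptprc, which encodes CD45, had 0.63 (adjusted p = 0.0723).

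Genes of fuel use showed single calls in opposite directions, beside 0.341% of all genes called higher in light and 0.231% higher in dark. In the fatty acid oxidation list of 17, Acot2, a mitochondrial acyl-CoA thioesterase, rose by 0.53 in light and Plin2, a lipid droplet coat protein, fell by 0.52, and neither call survived any omission (adjusted p up to 0.132 and 0.149). Pdk4, which shuts pyruvate dehydrogenase, had 1.10 with an adjusted p of 0.0714. Alas1, the first enzyme of heme synthesis, was the 1 dark-higher call among 17 xenobiotic genes, at -0.51 (adjusted p = 0.0437, called in 0 omissions). In the xenobiotic list 15 of 17 differences were negative, beside 10257 of 18194 for all genes, and the median was -0.22. Its mean was 7.13 to 7.37 in light against 7.58 to 7.71 in dark. Insig1 and Scd2, genes of sterol and fatty acid synthesis, had 0.49 and -0.34 without passing. Of 33 oxidative phosphorylation genes 0 were called, 0 had an unadjusted p under 0.05 and the median was 0.01.

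**Figure D4:**
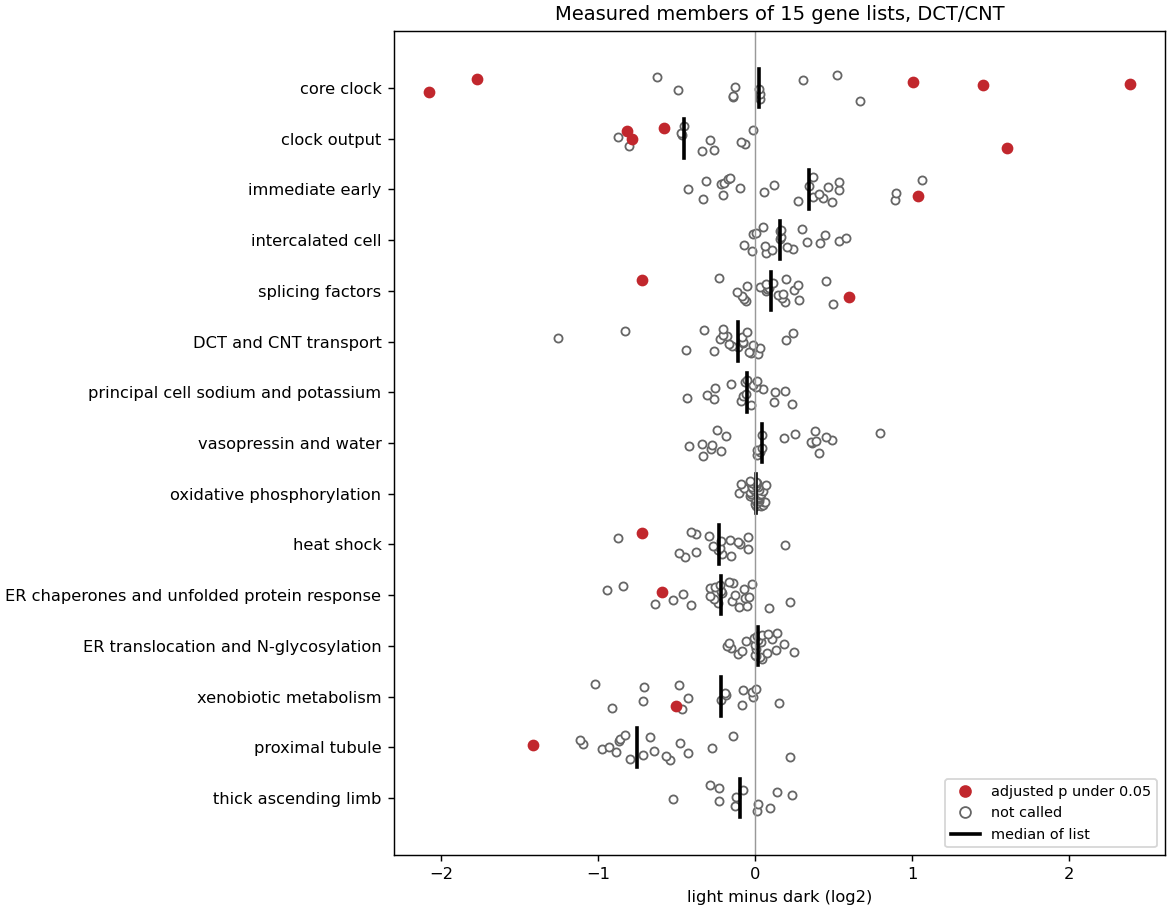
Light minus dark (log2) in DCT/CNT of every measured member of 15 gene lists, with filled points for genes called at an adjusted p under 0.05 and a vertical bar at the median of each list. Called genes are few in any list, the proximal tubule median is the lowest at -0.75, and oxidative phosphorylation genes cluster around 0.

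The times of a phase were also compared, with 2 arrays on each side in place of 4, so that each gene's SE was 1.41 times that of the phase contrast and the numbers of calls cannot be set against each other. Between ZT8 and ZT4, 0 genes (0%) were called by limma, with 1630 (8.96%) at an unadjusted p under 0.05. Between ZT20 and ZT16, 3 genes (0.0165%) were called, Sphk2, Dbp and Nr1d2, all lower at ZT20, with ZT20 minus ZT16 differences of -2.19, -2.47 and -2.43 (adjusted p = 0.0147 each). At an unadjusted p under 0.05 there were 1158 (6.36%). These calls were lost without ZT8 pools, ZT12 pools, ZT16 pool 1 or either ZT20 pool (0 calls each), and 4 genes were called without ZT16 pool 2. Of the 104 genes called between phases, 33 differed between ZT8 and ZT4 and 34 between ZT20 and ZT16 at an unadjusted p under 0.05. Among all genes these shares were 8.96% and 6.36%, and 53 of the 104 differed within at least 1 phase. The call favours genes with a small SE, which these contrasts share, so the counts partly follow from the choice of genes. All but 1 of the 104 kept their sign when each time was set alone against the other phase (103 genes), and the exception was Nr1d2. These genes were called on the same arrays, so the kept signs largely follow from the call. At ZT12 the light-higher genes were nearer their light level in 37 of 62 and the dark-higher genes nearer their dark level in 23 of 42. At ZT0 these counts were 35 of 62 and 24 of 42.

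The CCD arrays of the same times did not enter the 12-array test, though each gene's probe set was chosen by its brightness on all 24 arrays. Whether the CCD pools came from the same mice, or all arrays went through 1 RMA run, is not stated, so CCD is no independent repeat. CCD gave the same sign for 61 of the 62 light-higher genes (98.4%) and 38 of the 42 dark-higher genes (90.5%), beside 64.5% of all genes with a positive and 53.8% of all genes with a negative DCT/CNT difference. In the 24-array fit CCD had 290 called genes (1.59%), namely 158 light-higher genes (0.868%) and 132 dark-higher genes (0.726%), among them 30 of the 62 and 20 of the 42. Nr1d1, Cry1 and Dbp differed in CCD by 2.89, -2.10 and 2.10. Tsc22d3 differed there by -1.17 and Tardbp by -0.95. Nefl and Ldhd had CCD differences of -0.13 and -0.16 (adjusted p = 0.9 and 0.813), but the difference between segments was not called for either.

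Only Ranbp3l differed between the segments in its phase contrast at an adjusted p under 0.05 (1 gene, 0.00550% of those tested, with 1983, or 10.9%, at an unadjusted p under 0.05). Ranbp3l, whose product is related to the RAN-binding nuclear transport proteins, read 7.24, 6.76, 7.70 and 8.21 in the light DCT/CNT pools and 6.00, 5.97, 5.91 and 6.15 in the dark ones. All light pools were higher, and the dark pools were alike. The DCT/CNT difference was 1.47 (SE 0.18, adjusted p = 0.0177, called in 8 of 12 omissions), and in CCD it was -1.70 (SE 0.20, adjusted p = 0.000671), with means of 8.16 in light and 9.86 in dark. The contrast of the segments was 3.17 (SE 0.29, adjusted p = 0.000232), and a further Ranbp3l probe set also had a positive DCT/CNT difference, 1.03 (SE 0.18). For Layn, a hyaluronan receptor, the segments' differences were -0.69 and 0.19 (adjusted p of the contrast 0.098). For Ccng2, Ehf and Ifna2 the contrasts were 0.49, 0.45 and -0.91, each with an adjusted p of 0.24.

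**Figure D5:**
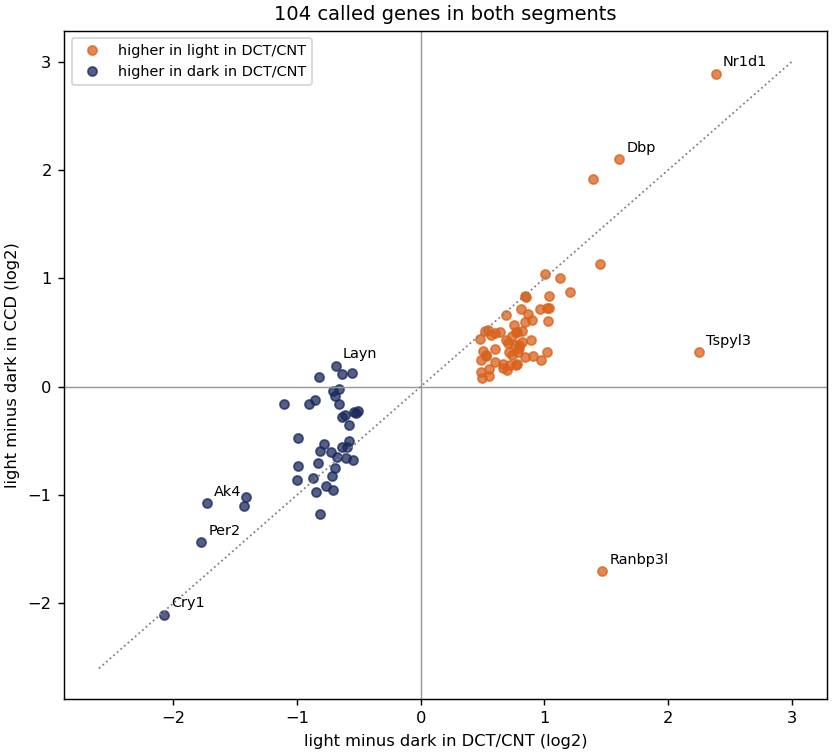
Light minus dark in DCT/CNT (horizontal, log2) against light minus dark in CCD (vertical, log2) for the 104 called genes, 1 point per gene, with a dotted line of equal values. Ranbp3l lies alone at the lower right (1.47 against -1.70), while Nr1d1 and Cry1 lie near the line.

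Of the called genes, 75 had other probe sets with 1 symbol, 141 in all. Of these probe sets 116 had the same sign as the one used, 15 of them with a call over all probe sets, and 0 were called in the opposite direction. The other probe sets were dimmer, with a median mean value of 6.75 against 8.88 for those used.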

How the data were processed

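The deposited table holds log2 values that the authors made with RMA, for 45101 probe sets and 24 arrays, per the submitters' processing notes and the table itself. The RMA settings are not given in the sources used here. Per the labels' protocols, 10 ng of RNA was amplified per array. For arrays the precision is limited by their number. Probe sets were named through the platform's table: 34958 had 1 symbol, 932 several and 9211 none, and 34754 of those with 1 symbol matched the RefSeq gene table (GRCm38.p6). Each of 18194 genes is represented by the probe set that was brightest on average on the 24 arrays, with no filter on dim genes.

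Group means of the 12 DCT/CNT arrays were fitted with limma 3.58.1 in R 4.3.3 (6 residual degrees of freedom), and the contrast was the mean of ZT4 and ZT8 minus the mean of ZT16 and ZT20. P-values were adjusted by Benjamini-Hochberg over all genes. The segment contrast used all 24 arrays in 12 groups. The script was tested on simulated data. Genes were named by a rule: all of the clock lists, the 20 largest separated differences each way, the 4 smallest p-values of each other list and up to 10 for each further contrast. Of 722 list entries, 665 were measured, in 36 lists, and lists that are not described had no more than 1 called gene. The comparison, the rule and the lists were chosen with earlier results of these data known. The labels name no batch or date. The alternatives were other array sets, scalings, probe choices, priors, weights, covariates, single times and the omission of each array.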

Additional observations from a re-analysis of the deposited data

Results flagged for a closer look

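In 240 groups of 4 pools (named genes and list means, light and dark), 9 held a pool far from the other 3 by Dixon's criterion. Chance gives about 1 in 20, so no more groups were flagged than by chance. Each group joined both times of a phase, whose means can differ, so that rate is only a rough guide. In light, Per1 was high in ZT8 pool 1 (8.78 against 8.24 for the next pool), Tnk2 in ZT8 pool 2 (8.73 against 8.14) and Plin2 in ZT4 pool 2 (8.58 against 8.33). Also in light, the endothelial list mean was low in ZT8 pool 1 (7.86 against 7.94) and the erythrocyte list mean in ZT4 pool 1 (4.17 against 4.42). In dark, ZT16 pool 1 was high for Ehf (10.76 against 10.45) and Hspe1 (12.63 against 12.50) and low for Akr1c14 (7.90 against 8.29). The xenobiotic list mean was high in ZT20 pool 2 (7.71 against 7.60). Ranbp3l had opposite phase differences in the segments, with a tested contrast of 3.17 between DCT/CNT and CCD.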

How the results depend on the processing

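With 104 genes called in the fit as reported (62 higher in light and 42 higher in dark), the count was 18 (11 and 7) on the 8 arrays alone in 4 groups, 42 (23 and 19) with no time term and 773 (483 and 290) with all 24 arrays, of which 16, 32 and 98 were shared with the 104. Taking only genes above the median gene gave 324, the mean of a gene's probe sets 68, the probe set of highest variance 39, a trended robust prior 375, array weights 61 and the tubule covariates 1. Single times gave 19 for ZT4, 60 for ZT16 and 19 for ZT20 against the other phase, with 77 for ZT8. Leaving out 1 array gave 4 to 91 calls. Equal medians, quantile and cyclic loess scaling gave 121, 109 and 118, and 66.9% of the calls were higher in light with equal medians against 59.6% as reported. The pool numbers did not pair the samples (correlation of pool differences between times from -0.12 to 0.12), and a replicate block gave 66 calls, 60 of them shared. ZT20 minus ZT16 gave 0 calls with 8 arrays and 15 with 24, and 0 to 4 over the omissions. ZT8 minus ZT4 gave 35 with 24 arrays, 1 with equal medians or quantile scaling and 0 to 6 over the omissions. The segment contrast gave 2 genes with quantile scaling and 1 to 12 over the omissions (12 without ZT20 pool 2 of DCT/CNT, 5 without ZT16 pool 1), and Ranbp3l was past the threshold throughout. Of the 104 genes, 98 kept their sign in every setting, all of which reused arrays on which they were called. Among 84 named genes, 13 of 2426 alternative values had the opposite sign: Clock (-0.012 with quantile, -0.023 with cyclic loess, -0.054 with covariates, -0.31 for ZT8, -0.28 against ZT20, and -0.026 as the lowest over the omissions, with 0.091 the highest), Arntl (-0.27 for ZT8, -0.33 against ZT20), Tef (0.074 and 0.018 for the same times), Per3 (0.076 against ZT20), Nr1d2 (-0.21 against ZT16) and Ptprc (-0.63 with the most variable probe set). Of the rest, 659 lost a call and 82 gained one. The causes were not tested. With 2 pools per time and 6 residual degrees of freedom, calls were lost or gained when 1 array was removed. This held not only for genes with an adjusted p near 0.05.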
